A study of Myzus persicae with 8 samples.

Results

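Among the 10489 contigs (assembled transcript sequences) on an oligonucleotide array of the green peach aphid Myzus persicae, 3 were examined here because their best BLAST hits describe them as heat shock protein 70 (HSP70). They are contig6029, contig8669 and contig15349. They were selected on their up-regulation by insecticide, since BLAST descriptions were read only for contigs listed as up-regulated. Any HSP70 contigs of the array outside those lists are not seen here. All belong to the list of contigs up-regulated in genotype S (mean log2 ratio of insecticide over water above 1 at an unadjusted P under 0.05), and contig6029 and contig8669 belong to the same list for genotype SR as well. The responses in S, and those of contig6029 and contig8669 in SR, are therefore given as descriptions with no test. The array carried 1 probe, printed as 1 spot, for each of the 3 contigs among 14628 probes. The spots of the 3 contigs on 8 arrays gave 48 channel readings, of which 48 were well above background and 0 were saturated or outliers.

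Proteins of the HSP70 family are chaperones that bind exposed stretches of unfolded proteins and release them through cycles of ATP hydrolysis. Some members are made mainly under stress, such as heat or toxic compounds. Others, the cognates (hsc70), are present in unstressed cells and fold newly made proteins. In insects, HSP70 transcripts are used widely as markers of cellular stress.

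Whole adult wingless aphids of 3 genotypes, each a clonal lineage, were sprayed with 1 ml of the carbamate pirimicarb at 20 ppm in acetone plus water. Pirimicarb inhibits acetylcholinesterase, the enzyme that clears acetylcholine from synapses. The labels give the control as acetone plus water and the study's methods give water, so a part of acetone in the difference cannot be told apart. Survivors were frozen at 24 hours and about 40 aphids made up an RNA extract. Genotype S had no known resistance mutation. Genotype SR was heterozygous for kdr, a change in the sodium channel targeted by pyrethroids. Genotype MR was heterozygous for kdr and for MACE, a change in acetylcholinesterase that lowers its sensitivity to pirimicarb. Each array held insecticide-treated and control RNA of 1 genotype in opposite dyes. There were 3 biological replicates for S (A, B and C), 2 for SR (A and B) and 2 for MR (A and B, with a repeat array of A). The insecticide-treated RNA carried Cy5 in replicates A and C and Cy3 in replicate B, so replicate letter and dye orientation cannot be told apart. All p-values rest on the spread between aphid pools of 1 lineage per genotype. Where no dye term was fitted, that spread also holds any difference between dye orientations. In limma the spread of each probe is also drawn toward that of all probes.

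The arrays did not all run the same way. Over all probes the log2 ratios of MR replicate A correlated with its repeat at r = 0.98 but with MR replicate B at r = -0.55, and S replicate A correlated with MR replicate A, of the same dye orientation, at r = -0.47. Replicates correlated at 0.29 to 0.48 in S and at 0.08 in SR. MR replicate A also correlated at -0.46 with S replicate B and at -0.01 with S replicate C. With SR replicates A and B it correlated at -0.14 and -0.23. MR replicate B correlated at 0.35, 0.32 and -0.05 with S replicates A, B and C. With SR replicates A and B it correlated at 0.07 and 0.26. The dyes in the labels set the direction of every ratio below, and whether those labels are right was not tested. Centred by loess, the probes had a median log2 ratio of 0.00 (S), 0.01 (SR) and 0.00 (MR), and 0 probes in any genotype passed an adjusted p of 0.05 in limma, against 2616, 296 and 93 at an unadjusted P under 0.05.

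Of the 3 contigs, contig6029 and contig8669 share the same best BLAST hit, and contig15349 shares its best hit with contig4539, described as heat shock cognate 70 protein. Each pair may therefore stand for 1 gene, or for close copies whose RNA could bind both probes. Probe sequences were not used here. The only sequences at hand for the 3 contigs are the primers designed on contig6029, whose match to the probe was not tested. They are shown 5′ to 3′, each of 22 bases.
contig6029 forward: aagatcgctgccaagaaccagt
contig6029 reverse: tttgcctgtgttcctctccgat

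In genotype S, contig6029 had the largest response of the 3. Its log2 ratio of insecticide over water was 3.14 in replicate A, 1.00 in replicate B and 3.32 in replicate C. Replicate B, the one with swapped dyes, stood well below the others but on the same side of 0. The mean was 2.48 ± 1.29 (SD, n = 3), a 5.60-fold higher level, which ranked 6 of 14628 probes. Without replicate B the mean log2 ratio was 3.23. The threshold that chose the contig, a log2 ratio above 1 at an unadjusted P under 0.05, was passed by 1.71% of all probes in S.

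contig8669 followed contig6029 in every S replicate. Its log2 ratio was 2.90 in replicate A, 0.77 in replicate B and 2.87 in replicate C. The mean of 2.18 ± 1.22 (SD, n = 3), or 4.53-fold, ranked 14 of 14628 probes, and without replicate B it was 2.88.

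contig15349 was the weakest of the 3 in S and lay just inside the threshold. Its log2 ratio was 1.46 in replicate A, 1.04 in replicate B and 0.60 in replicate C. Here the dye-swapped replicate fell between the others. The mean was 1.03 ± 0.43 (SD, n = 3), or 2.04-fold, and ranked 303.

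**Figure D1:**
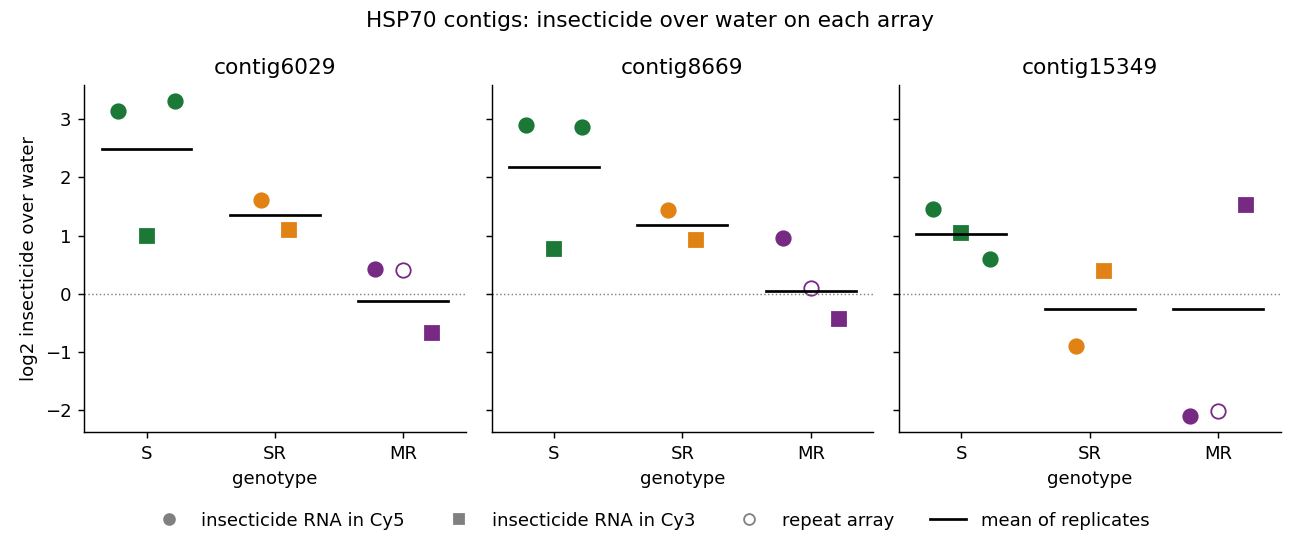
Log2 ratio of insecticide over water (vertical axis) of contig6029, contig8669 and contig15349 on each array of S, SR and MR, with circles for insecticide RNA in Cy5, squares for Cy3, an open circle for the repeat array and a bar for the mean of replicates. The S points of contig6029 and contig8669 all lie above the MR replicate means of A and B, while the MR arrays of contig15349 lie on both sides of 0, from -2.11 to 1.53.

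In genotype SR the first pair of contigs had lower means than in S, with ratios above 0 on both arrays. For contig6029 the log2 ratio was 1.61 in replicate A and 1.096 in replicate B. The mean of 1.35 ± 0.36 (SD, n = 2), or 2.55-fold, ranked 13 of 14628 probes. For contig8669 it was 1.44 in replicate A and 0.93 in replicate B. The mean of 1.18 ± 0.36 (SD, n = 2), or 2.27-fold, ranked 32. Only 0.164% of all probes passed the up-regulation thresholds in SR, which these contigs did by selection.

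The ratio of contig15349 in SR was not used to choose it, and it split by replicate. The log2 ratio was -0.90 in replicate A and 0.39 in replicate B, so the arrays lay on opposite sides of 0. The mean was -0.26 ± 0.92 (SD, n = 2), with a 95% interval of -1.30 to 0.79. It did not pass the thresholds (limma, adjusted p = 0.9998), which 1.12% of probes passed in either direction in SR. Without replicate A the value was 0.39, of the opposite sign. Read as Cy5 over Cy3, the SR arrays gave -0.90 and -0.39, both below 0.

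None of the 3 contigs passed the thresholds in genotype MR, where 0.636% of all probes passed them in either direction. For contig6029 the log2 ratio was 0.43 on the first array of replicate A, 0.40 on its repeat and -0.68 in replicate B. The mean of the replicates was -0.13 ± 0.78 (SD, n = 2), with a 95% interval of -1.26 to 0.99 (limma, adjusted p = 0.99997). The arrays of replicate A and that of replicate B lay on opposite sides of 0. Read as Cy5 over Cy3, the log2 ratio on these arrays was 0.43, 0.40 and 0.68, all above 0.

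For contig8669 the MR log2 ratio was 0.96 on the first array of replicate A, 0.10 on its repeat and -0.44 in replicate B. Read as Cy5 over Cy3, these were 0.96, 0.10 and 0.44. The second array is described as a repeat of replicate A, although its title pairs it with control RNA of another letter. Both arrays gave close values for contig6029 and differed for contig8669. The level of contig8669 was lower on the repeat in both channels, at 8.82 against 9.56 on the log2 scale in the control and 8.92 against 10.52 after insecticide. Its spot lies in row 192 of the 192 rows of the array, and a part of that position in the difference was not tested. The mean over replicates was 0.05 ± 0.68 (SD, n = 2), with a 95% interval of -1.06 to 1.15 (limma, adjusted p = 0.99997).

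contig15349 was the most divided in MR. Its log2 ratio was -2.11 on the first array of replicate A, -2.02 on the repeat and 1.53 in replicate B. The repeat array, of the same dye orientation, gave nearly the same value. By the labels, the difference thus lay between the replicates A and B or between their dye orientations, which cannot be told apart. Whether the dye labels of these arrays are right was not tested. The mean was -0.27 ± 2.54 (SD, n = 2), with a 95% interval of -2.16 to 1.63 (limma, adjusted p = 0.99997), so that neither a rise nor a fall of more than 2-fold was left out. With replicate B left out the value was -2.06, and with replicate A left out it was 1.53, each from a lone MR replicate. Read as Cy5 over Cy3, the log2 ratio on the MR arrays was -2.11, -2.02 and -1.53, all below 0.

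**Figure D2:**
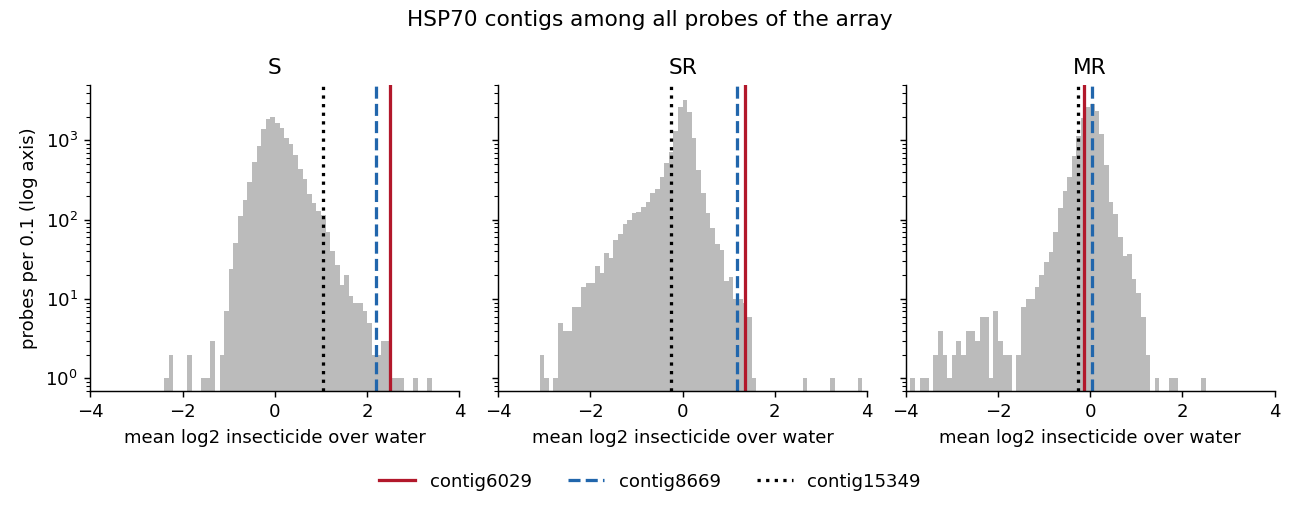
Number of probes (vertical log axis) by mean log2 ratio of insecticide over water (horizontal axis, bins of 0.1) in S, SR and MR, with lines at the means of contig6029, contig8669 and contig15349. The lines of contig6029 and contig8669 stand in the right tail in S and SR, at 2.48 and 2.18 and at 1.35 and 1.18, and near the centre in MR.

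Set side by side, the mean log2 ratio of contig6029 was 2.48 for S, 1.35 for SR and -0.13 for MR, and that of contig8669 was 2.18, 1.18 and 0.05. For both contigs the S and SR replicates overlapped, because S replicate B lay below the SR values. The S and SR values chose both contigs, so the shares of probes that follow are no test. All S replicates lay above both MR replicates, a pattern that 5.89% of all probes showed, and both SR replicates lay above both MR replicates, which 6.21% of probes showed. For contig6029 this held on each single array as well. For contig8669 it held only with MR replicate A averaged with its repeat, since the first array of replicate A, at 0.96, was above S replicate B (0.77) and SR replicate B (0.93). Within the arrays that carried insecticide RNA in Cy5, contig6029 was at 3.14 and 3.32 for S, 1.61 for SR and 0.42 for MR (mean of the arrays of replicate A). In the Cy3 orientation it was at 1.00 for S, 1.096 for SR and -0.68 for MR, so the step between S and SR was seen in 1 orientation only. For contig15349 all S replicates, the values that chose it, lay above both SR replicates, as in 10.6% of probes, and S and MR overlapped.

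Dye orientation, or the replicate letter that goes with it, moved with the size of the response. With orientation as a term in a fit of all 7 replicates, the log2 ratio in the Cy5 orientation minus that in the Cy3 orientation was 1.38 for contig6029, 1.29 for contig8669 and -1.47 for contig15349. The sign was opposite for the first pair and the third contig. Differences of larger size were found in 1.39%, 1.72% and 1.11% of probes. With this term the mean ratios of contig6029 became 2.35 for S, 1.45 for SR and -0.04 for MR, and those of contig8669 were 2.06, 1.27 and 0.14. Those of contig15349 became 1.17 for S, -0.36 for SR and -0.37 for MR. With the term contig15349 no longer passed, in S, the unadjusted P threshold that had listed it, nor did it in a fit of all replicates without the term, where contig8669 in SR did not pass it either.

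The responses of contig15349 in SR and MR could be tested against each other, since neither chose the contig. The difference, SR minus MR, was 0.01 on the log2 scale with a 95% interval of -2.56 to 2.57 (limma, adjusted p = 1). Such an interval covers differences in both directions, and without MR replicate A, which leaves a lone MR replicate, the difference was -1.79.

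The level of each contig in each channel, on the log2 scale of normalized intensity, gives both sides of each ratio. Levels are compared for 1 contig at a time, since probes differ in brightness. In control aphids contig6029 was at 10.77, 11.27 and 11.52 in S replicates A to C, at 10.25 and 10.75 in SR replicates A and B, and at 10.17 (mean of the arrays of replicate A) and 11.18 in MR. The control levels of the genotypes overlapped. After insecticide it was at 13.91, 12.26 and 14.84 in S, at 11.86 and 11.84 in SR, and at 10.59 and 10.49 in MR. The levels after insecticide fell in the order S, SR and MR without overlap, an order that 0.78% of all probes showed. The S and SR channels are part of the ratios that chose this contig, so the order is a description and the share no test. The genotype means after insecticide were 13.67 ± 1.30 (SD, n = 3) in S, 11.85 ± 0.01 (SD, n = 2) in SR and 10.54 ± 0.07 (SD, n = 2) in MR.

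contig8669 showed a similar picture with more overlap. In control aphids its level was 9.08, 9.66 and 10.31 in S, 8.75 and 9.63 in SR, and 9.19 and 9.44 in MR. After insecticide it was 11.98, 10.43 and 13.18 in S, 10.19 and 10.56 in SR, and 9.72 and 9.00 in MR. S and SR overlapped after insecticide, and every S and SR replicate was above both MR replicates, as in 4.66% of probes. The S and SR channels are part of the ratios that chose this contig too, so that share is no test. That separation also rested on the averaging of MR replicate A, whose first array, at 10.52, was above S replicate B and SR replicate A.

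For contig15349 the S replicates were spread in the control and close together after insecticide. In control aphids its level was 13.80, 14.19 and 14.73 in S, 14.94 and 15.09 in SR, and 16.53 and 14.81 in MR. All S replicates were below all SR and MR replicates, a pattern that 6.39% of probes showed. The S control channel is the denominator of the ratio that chose this contig, so the pattern is a description and the share no test. After insecticide the S replicates lay close together at 15.26, 15.23 and 15.33, while SR gave 14.03 and 15.48 and MR gave 14.47 and 16.34. The SR and MR values after insecticide lay on both sides of those of S. The control means were 14.24 ± 0.47 (SD, n = 3) in S, 15.02 ± 0.11 (SD, n = 2) in SR and 15.67 ± 1.22 (SD, n = 2) in MR. The mean after insecticide was 15.27 ± 0.05 (SD, n = 3) in S, 14.76 ± 1.02 (SD, n = 2) in SR and 15.40 ± 1.33 (SD, n = 2) in MR. With dye as a term, SR minus MR was -0.65 in the control (95% interval -2.04 to 0.73, limma, adjusted p = 0.95) and -0.65 after insecticide (95% interval -1.79 to 0.50, limma, adjusted p = 0.63).

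**Figure D3:**
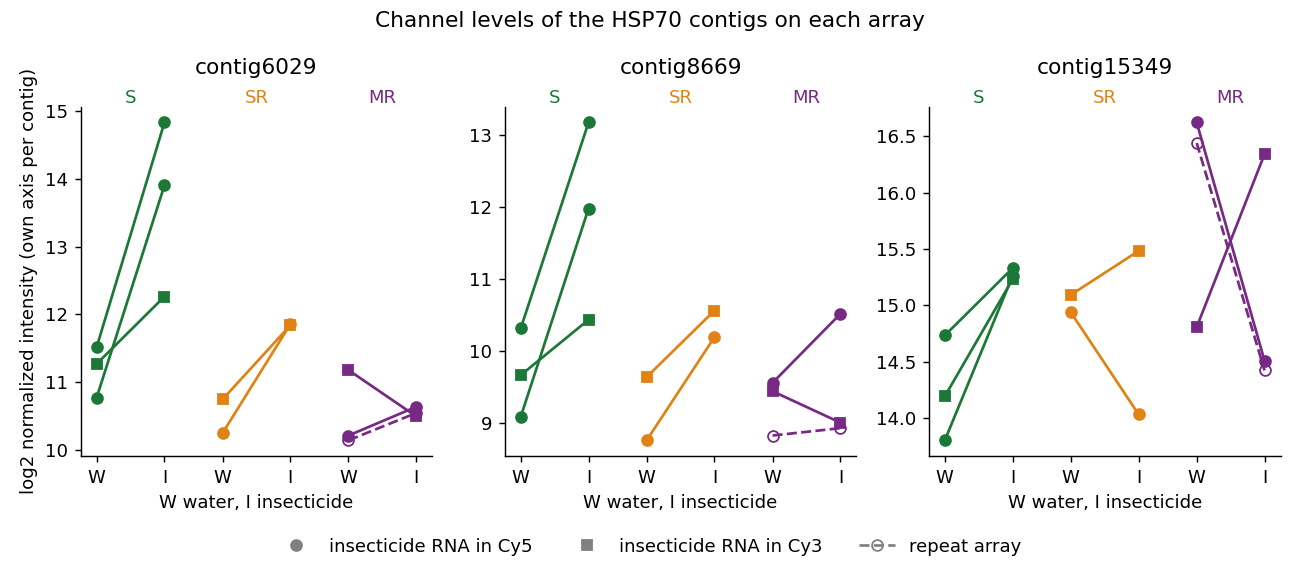
Log2 normalized intensity (vertical axis, its own range for each contig) of the 3 HSP70 contigs in the control (W) and insecticide (I) channel of each array, joined by a line per array, with circles for insecticide RNA in Cy5, squares for Cy3 and dashed lines for the repeat array. For contig6029 the insecticide levels run from 14.84 in S down to 10.49 in MR, and for contig15349 the S control levels (13.80 to 14.73) lie below those of SR and MR.

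Over the 7 replicates, the pair that shares a BLAST hit moved together and apart from the third contig. Pearson's r of the log2 ratio was 0.996 between contig6029 and contig8669, and each was the most like of 8342 contigs well above background on every array to the other. Between contig15349 and these contigs r was 0.15 and 0.14. These coefficients are descriptions over 7 replicates that share arrays, dyes and normalization.

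The next most like contig to both contig6029 and contig8669 was contig773, with r = 0.99 to each, for which no description was at hand. Its log2 ratio was 1.24, -0.01 and 1.19 in S, 0.55 and 0.25 in SR, and -0.15 and -0.86 in MR. The third was contig8424, described as an unknown protein and also on the S and SR lists, with r = 0.98 to each. Its log2 ratio was 2.75, 0.54 and 2.79 in S, 1.87 and 1.08 in SR, and 0.42 and -0.72 in MR. Both were low in S replicate B and lowest in MR replicate B, as the pair was.

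The contigs most like contig15349 were contig8515 (r = 0.999), contig5690 (r = 0.998) and contig15164 (r = 0.996), none with a description at hand. They were higher after insecticide in every S replicate, at 0.23 to 0.50, 0.26 to 0.72 and 0.49 to 1.20 on the log2 scale. In MR replicate A they were at -0.81, -1.09 and -1.49 and in MR replicate B at 0.57, 0.75 and 1.11.

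The other heat shock contigs of the S list were 2 cognates, the forms generally made without stress. contig4539, which shares its BLAST hit with contig15349, had a log2 ratio of 2.05, 1.26 and 0.87 in S, -1.11 and 0.32 in SR, and -2.38 and 1.68 in MR. Its profile correlated with that of contig15349 at r = 0.995, at rank 6 of the contigs compared. contig8667, described as a heat shock 70 kd protein cognate with a hit of its own, had 1.31, 1.17 and 0.84 in S, -1.56 and 0.89 in SR, and -1.90 and 1.36 in MR, with r = 0.96 to contig15349, at rank 182. Toward contig6029 the correlation was 0.23 for contig4539 and 0.15 for contig8667. The profile of contig15349 and both cognates was thus shared by many other contigs. Descriptions of like contigs were taken only from the lists of up-regulated contigs, so what those without one encode is not known here.

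**Figure D4:**
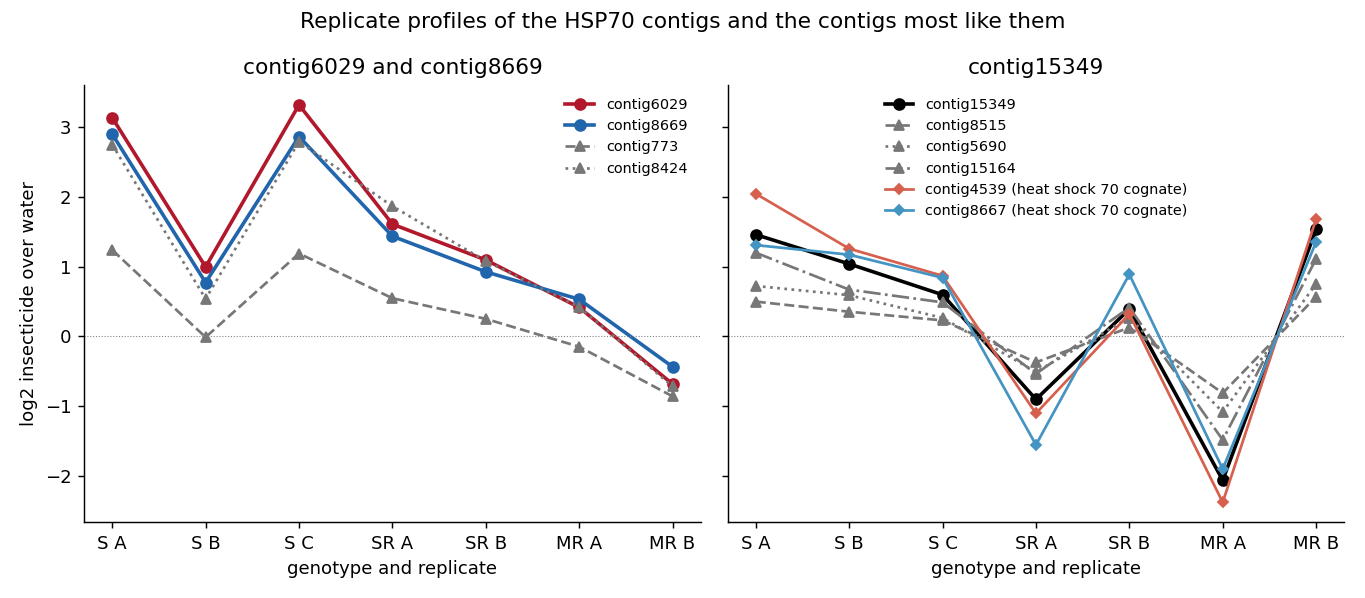
Log2 ratio of insecticide over water (vertical axis) in each replicate for contig6029 and contig8669 with the other contigs most like them (left), and for contig15349 with those most like it and both heat shock 70 cognates (right). On the left all values are lowest in MR replicate B, and on the right all are below 0 in SR replicate A and MR replicate A and above 0 in both B replicates.

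Neither cognate passed the thresholds in SR or MR, where few probes did (1.12% and 0.636%), so a count of 0 does not set the cognates apart. The mean log2 ratio of contig4539 was -0.39 ± 1.01 (SD, n = 2) in SR and -0.35 ± 2.87 (SD, n = 2) in MR. That of contig8667 was -0.33 ± 1.73 (SD, n = 2) in SR and -0.27 ± 2.30 (SD, n = 2) in MR. For both cognates the limma adjusted p was 0.9998 (SR) and 0.99997 (MR).

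Among other contigs for protein folding and quality control on the S list, contig5215 is described as a peptidylprolyl isomerase, an enzyme that turns proline bonds during folding. Its log2 ratio was 2.10, 0.39 and 0.84 in S, 0.47 and -0.14 in SR, and -1.65 and 0.75 in MR. contig1733 is described as metalloprotease m41 ftsh, of a family that degrades damaged membrane proteins in mitochondria. The mean of its 2 probes was 1.41, 0.74 and 0.63 in S, -0.23 and 0.40 in SR, and -1.51 and 0.93 in MR. Of these 2 contigs, 0 passed the thresholds in SR and 0 in MR, as did nearly all probes (1.12% passed in SR and 0.636% in MR). Like contig15349, both were below 0 in MR replicate A and above 0 in MR replicate B. Over all probes these replicates correlated at r = -0.55, and the share of probes with such a split was not computed.

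Glyceraldehyde-3-phosphate dehydrogenase, a glycolytic enzyme used as a reference gene, was measured the same way for comparison. The mean of the 2 probes of its contig, contig1056, had a log2 ratio of -0.04, -0.05 and 0.19 in S, 0.10 and -0.06 in SR, and 0.08 and 0.09 in MR. In MR its replicates A and B differed by far less than those of the HSP70 contigs. The study cites the stability of this gene on these same arrays among its reasons to use it, so the comparison is not independent.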

How the data were processed

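Survivors of a pirimicarb or control spray were compared within genotypes S, SR and MR on 8 two-colour Agilent arrays, all on 1 slide and in 1 scan. The authors deposited the output of Agilent Feature Extraction 10.1.1.1, in which median spot signal and local background are intensities on a linear scale before normalization. Processed signals, background-subtracted and dye-normalized by that software, served as an alternative. For each genotype a further table was deposited, with log2 fold changes, mean log2 intensities, moderated t statistics, p-values and adjusted p-values, and was not used. No spot sequences were used.

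The local background was removed with normexp (offset 50), and loess was applied within each array. Control spots had weight 0 in loess, and outlier spots were dropped. The dyes in the labels set the direction of each ratio, insecticide over water. The label of 1 MR array calls it a repeat of replicate A, so both arrays were averaged and MR has n = 2, although the study counts 3 replicates and the array's title pairs it with control RNA of another letter. One label of S replicate A names SR, whereas its title and description name S, and it was used as S. Models were fitted per genotype with lmFit and eBayes in limma 3.58.1 (R 4.3.3), with Benjamini-Hochberg adjustment over all probes. Genotypes were compared in a fit of all 7 replicates. Levels are channel values after loess and Aquantile normalization, and their differences were fitted with dye as a term. The fits were tested on simulated data.

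The contigs and lists were chosen with earlier results of these data known. Contigs named are the 3 HSP70 contigs, other listed contigs described as heat shock, peptidylprolyl isomerase or ftsh protease, the reference gene and the 3 contigs of most similar profile to each HSP70 contig. Descriptions come from the study's best BLAST hits. The reference gene table used here could not be joined to contigs, so no coordinates are given. Alternatives were other background corrections and normalizations, processed signals, filters, different fits, other ways to count the MR arrays and the omission of each replicate. Dye orientation as a term was added after the data were seen. The number of arrays limits the precision.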

Additional observations from a re-analysis of the deposited data

How the results depend on the processing

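The responses of contig6029 and contig8669 in S and in SR, and that of contig15349 in S, kept their direction under every alternative run. With each replicate left out in turn they ranged from 2.07 to 3.23, 1.82 to 2.88 and 0.82 to 1.25 in S, and those of contig6029 and contig8669 from 1.096 to 1.61 and 0.93 to 1.44 in SR. Not all kept the thresholds that had listed them. contig15349 in S fell under the log2 ratio of 1 without replicate A and missed the P threshold in a fit of all replicates, with or without the dye term. contig8669 in SR missed the P threshold in that fit without the dye term, and it fell under the log2 ratio of 1 without SR replicate A, at 0.93. With either SR replicate left out, 1 SR replicate remained, so the P threshold is not read there. The responses near 0 changed sign. That of contig8669 in MR was -0.021 with median centring, and that of contig6029 in MR was 0.049 when each of the 3 MR arrays counted as a replicate. With each replicate left out, the MR response ranged from -0.68 to 0.42 for contig6029, from -0.44 to 0.53 for contig8669 and from -2.06 to 1.53 for contig15349. That of contig15349 in SR ranged from -0.90 to 0.39. The SR minus MR difference of contig15349 was -0.067 with median centring and -1.79 to 1.81 with each replicate left out. The S minus MR difference of its response, 1.30, ranged from -0.50 (without MR replicate A) to 3.10 (without MR replicate B). Its SR minus MR level ranged from -1.53 to 0.22 in the control and from -1.29 to -0.00037 after insecticide. The cause of these changes was not tested. The fits that leave a replicate out also hold fewer samples.

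The share of probes past the thresholds in SR, 1.12%, was 0.465% with median centring, 1.76% in a fit of all replicates, 0.684% with an intensity trend and robust eBayes and 2.39% with dye orientation as a term. With the scanner's processed signals it was 3.15% in S and 1.07% in MR, against 1.83% and 0.636%. When an SR or MR replicate is left out, a lone replicate remains, and that genotype has no spread of its own. For SR and MR the share of probes past the thresholds is then not comparable with 1.12% or 0.636%, and it is given as a description only. With each replicate left out it ranged from 1.53% to 3.71% in S, from 0.164% to 7.69% in SR and from 4.16% to 8.48% in MR.

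Replicates of the same letter share a letter and a dye orientation. The study's methods describe sprays run in parallel for the genotypes, and whether the letters mark such rounds is not known here. Their deviations from the genotype means correlated at 0.50 (S and SR, A), 0.43 (S and SR, B), -0.37 (S and MR, A), 0.03 (S and MR, B) and -0.02 (SR and MR), so the letters did not pair the samples. With the letter as a replicate block, the SR minus MR response of contig15349 was 0.01 (adjusted p = 1), and its level difference was -0.65 in the control and -0.65 after insecticide, and no call changed.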
